A study of Mus musculus with 15 samples.

Results

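Chromosome 11 was the autosome most densely covered by regions of decreased H2A.X in 5 of the 10 lists of such regions from mouse embryonic stem cells. The chromosome was chosen by this coverage, the share of its span that the domains of a list take up, as ranked among the autosomes in each list. Every domain that a list placed on it was taken, which gave 1363 domains of 23031 on the 19 autosomes. By the authors' own naming, each list holds domains where 1 H2A.X immunoprecipitate fell below its control, and that control is not identified in the sources used here.

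The cells were male and female embryonic stem cell lines from blastocysts of 129S6 X C57B6 mice, and all groups share this strain background. In Serum/LIF they were kept on irradiated feeder cells with serum and LIF, the cytokine that supports self-renewal of mouse embryonic stem cells. In 2i/LIF they were kept without serum, with LIF, 1 µM of the Mek inhibitor PD0325901 and 3 µM of the Gsk3 inhibitor CHIR99021. Cells of a further group were moved from 2i/LIF to Serum/LIF, and for how long is not stated. H2A.X was mapped by native ChIP-seq, in which nucleosomes are released by micrococcal nuclease without crosslinking and precipitated with an antibody. The series asks whether H2A.X deposition differs between these cultures.

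The lists came from 2i/LIF (lines 34, 35 and 37), 2i/LIF then Serum/LIF (lines 34 and 37) and Serum/LIF. The Serum/LIF lists carry XS (lines 30, 31 and 32) or S (lines 35 and 37) in their titles. The numbers are those in the sample titles and were read as cell lines, and the meaning of XS and S is not given. Of the 15 samples, 3 inputs, 1 IgG control and the S immunoprecipitate of line 34 have no list analysed here. The lists hold no read counts, so the depth of the samples is unknown. Nothing states that samples of a group were separate cultures, so p-values reflect only how far these samples scatter, possibly for technical reasons. The S lists were nearly empty on every autosome, with 26 and 130 domains, and the other 8 are called the wide lists here. No sequence of the build of the lists, mm9, and no gene annotation of it was used here, so no gene is assigned and no sequence is printed.

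H2A.X is a variant of histone H2A that is built into nucleosomes throughout the genome. It is best known for the phosphorylation of its tail by ATM and related kinases around DNA double-strand breaks, which recruits repair factors. A decreased domain in these lists refers to the level of H2A.X, not to its phosphorylation. Mouse autosomes carry the centromere at the end where base numbering starts, so low coordinates are near the centromere and high ones near the distal telomere. Chromosome 11 is one of the gene-rich mouse autosomes and carries, among others, the Hoxb cluster of developmental regulators.

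Coverage chose this chromosome and is therefore described without a test. The domains were measured over a span of 118.7 Mb, from base 3000401 to base 121716400 (mm9), which is 4.92% of the autosomal span. In 2i/LIF the decreased domains covered 52.6% of the span in line 34, 82.7% in line 35 and 62.0% in line 37. After the move to serum they covered 65.9% in line 34 and 62.4% in line 37. The XS lists covered 46.7% in line 30, 72.7% in line 31 and 27.2% in line 32. The S lists covered 0.0635% in line 35 and 0.105% in line 37. All 8 wide lists thus lay far above both S lists, and the XS lists were the most spread of the 3 wide cultures. Because the control of the lists is not identified, the gap to the S lists is not read as an effect of culture.

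The lead of chromosome 11 over the next autosome was wide in some lists and narrow in others. The autosome just below it had 44.1% in 2i/LIF line 34 (chromosome 19), 59.7% in 2i/LIF line 37 (chromosome 19), 59.1% in line 34 after the move (chromosome 9) and 57.7% in line 37 after the move (chromosome 19). In XS line 30 the next autosome was chromosome 5 at 46.1%, so that the 46.7% of chromosome 11 hardly stood out. In the remaining wide lists other autosomes led. Chromosome 11 was number 3 of 19 in 2i/LIF line 35, behind a maximum of 83.9% on chromosome 15. It was number 11 in XS line 31 and number 16 in XS line 32, where chromosome 16 led with 80.0% and 38.4%. The ratio of chromosome 11 to the mean of the other 18 autosomes was 1.54 and 1.38 in 2i/LIF lines 34 and 37, 1.59 and 1.50 in lines 34 and 37 after the move and 1.30 in XS line 30. It was 1.06 in 2i/LIF line 35, 0.997 in XS line 31 and 0.895 in XS line 32. The means after the move include chromosomes 6 and 8, which those lists hardly cover. The lowest autosome had 1.16% in line 34 (chromosome 8) and 0.0355% in line 37 (chromosome 6). Likewise, the mean of XS line 32 includes chromosome 13, at 0.0821%.

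**Figure D1:**
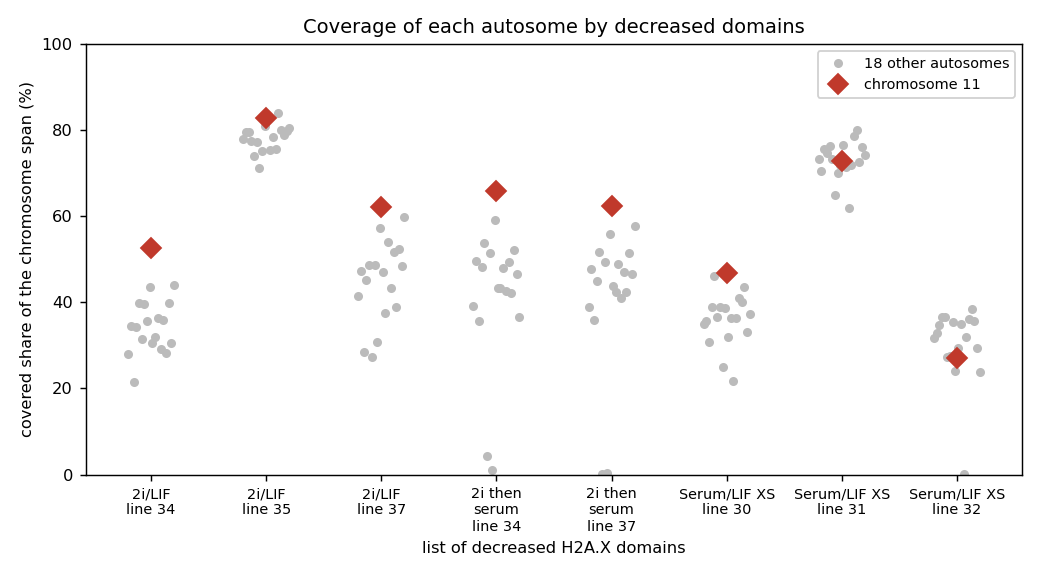
Share of each autosome's span covered by decreased H2A.X domains (vertical axis, percent) in the 8 wide lists (horizontal axis). Red diamonds are chromosome 11 and grey points the other 18 autosomes, 1 point each; chromosome 11 is highest in 5 lists and number 16 of 19 in XS line 32.

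The number of domains on chromosome 11 was far higher in the wide lists than in the S lists and did not separate the wide cultures from each other. The 2i/LIF lists held 169, 167 and 181 domains (lines 34, 35 and 37), a mean of 172.3 ± 7.57 (SD, n = 3). The lists after the move held 106 (line 34) and 177 (line 37), a mean of 141.5 ± 50.2 (SD, n = 2). The XS lists held 160, 131 and 269 (lines 30, 31 and 32), a mean of 186.7 ± 72.8 (SD, n = 3). The 2i/LIF numbers lay within 14 domains of each other, whereas 1 low list after the move and 1 high XS list set the spread of their groups. These 2 were also the smallest and the largest of the wide lists over all autosomes, with 1868 and 4392 domains. Chromosome 11 held 5.67% and 6.12% of them. Its share of the domains of a wide list lay between 5.24% and 6.50% throughout, so the numbers mainly followed the size of the list. The S lists held 1 domain in line 35 and 2 in line 37.

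Every wide list exceeded both S lists. The difference was 170.8 domains for 2i/LIF (exact permutation p = 0.2, two-sided), 185.2 for XS (exact permutation p = 0.2) and 140 for the lists after the move (exact permutation p = 0.333). Each of these is the smallest p that the number of lists allows, so the design could not pass 0.05. If an S sample, such as that of line 34, served as the control, nearly empty S lists would follow from that choice. This was not tested. Domains also came with a signed number that the sources do not explain. It was positive in all S domains, but in at most 17.0% of the chromosome 11 domains of any wide list. Whether S and wide domains changed in the same direction was not tested. The lists after the move held 30.8 fewer domains than the 2i/LIF lists (exact permutation p = 0.6, where 0.2 is the smallest possible), or 4.67 more without line 34 after the move and 66.3 fewer without line 37 after the move. The XS lists held 14.3 more than the 2i/LIF lists (exact permutation p = 1, where 0.1 is the smallest possible), but 26.8 fewer without XS line 32. They held 45.2 more than the lists after the move (exact permutation p = 0.6, where 0.2 is the smallest possible), and 4 more without XS line 32. Over the 12 tests made on chromosome 11 the lowest Benjamini-Hochberg adjusted p (exact permutation tests) was 0.8. The number of domains goes along with the coverage that chose the chromosome and is no independent support for it.

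Per Mb of span, chromosome 11 held the most domains of all 19 autosomes in each of the 3 XS lists, including those in which its coverage was not high. In XS line 30 it had 1.35 domains per Mb and the next autosome, chromosome 19, had 1.22. In XS line 31 it had 1.10, against 1.08 on chromosome 7. In XS line 32 it had 2.27 and so did chromosome 17, the next in order. In 2i/LIF it was number 2 (line 34), 5 (line 35) and 3 (line 37), and after the move number 9 (line 34) and 5 (line 37). In XS line 32, number 16 by coverage, the domains of chromosome 11 were shorter at the median than those of the other autosomes (68.9 against 80.6 kb). The same held in XS line 31, number 11 by coverage (361 against 397 kb).

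Median domain length on chromosome 11 was 224 kb, 335 kb and 263 kb in 2i/LIF lines 34, 35 and 37. After the move it was 432 kb in line 34 and 228 kb in line 37. In the XS lists it was 206 kb in line 30, 361 kb in line 31 and 68.9 kb in line 32. The 3 cultures overlapped, with line 34 after the move highest and XS line 32 lowest. The shortest domain of any wide list was 15.6 kb, so the chromosome held none of the domains of 1 or a few bins.

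The difference in median length between the lists after the move and 2i/LIF was 56.0 kb (exact permutation p = 0.6, where 0.2 is the smallest possible). It turned to -46.4 kb without line 34 after the move. The XS lists differed from 2i/LIF by -61.8 kb (exact permutation p = 0.6, where 0.1 is the smallest possible), and by 9.86 kb without XS line 32. From the lists after the move they differed by -118 kb (exact permutation p = 0.4, where 0.2 is the smallest possible), and by -15.4 kb without line 34 after the move. By length, none of these 3 cultures was separate from the others.

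Compared with the domains of all other autosomes in the same list, those of chromosome 11 were longer at the median in 5 lists and shorter in 3. They were longer in 2i/LIF line 34 (224 against 189 kb), 2i/LIF line 37 (263 against 220 kb), line 34 after the move (432 against 284 kb), line 37 after the move (228 against 173 kb) and, slightly, XS line 30 (206 against 202 kb). They were shorter in 2i/LIF line 35 (335 against 363 kb), XS line 31 (361 against 397 kb) and XS line 32 (68.9 against 80.6 kb). These are the lists that split by coverage too, and length is part of coverage. Domains over 500 kb held 82.2% of the covered length of chromosome 11 in line 34 after the move, compared with 72.9% on the other autosomes. In XS line 32 the shares were 24.8% and 40.7%, from 8 such domains on chromosome 11.

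The authors gave each domain a score that never exceeded its number of bins of 1300 bp, so a score per bin lies between 0 and 1. It ranks domains within a list only, and the values here are the authors'. The median score per bin of chromosome 11 was the highest of the 19 autosomes in 7 of the 8 wide lists and number 2 in line 37 after the move. It was 0.901, 0.766 and 0.819 in 2i/LIF lines 34, 35 and 37, against 0.868, 0.717 and 0.791 over the domains of the other autosomes. After the move it was 0.899 in line 34, against 0.859, and 0.919 in line 37, against 0.872. In the XS lists it was 0.737, 0.664 and 0.813 in lines 30, 31 and 32, against 0.688, 0.638 and 0.788. The high score therefore also held in XS lines 31 and 32, in which chromosome 11 was number 11 and number 16 by coverage.

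The distance to the next autosome by score was small. In 2i/LIF line 37 chromosome 19 followed at 0.817, and in XS line 31 chromosome 9 at 0.659. In line 37 after the move chromosome 6 was higher, at 0.930, but from 1 domain only. When the scores were summed over all bins of a chromosome instead of taking the median domain, chromosome 11 was number 1 in 2 lists, number 2 in 5 and number 3 in 2i/LIF line 37. No test is given, since the comparison of this chromosome with the others is the one that chose it.

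**Figure D2:**
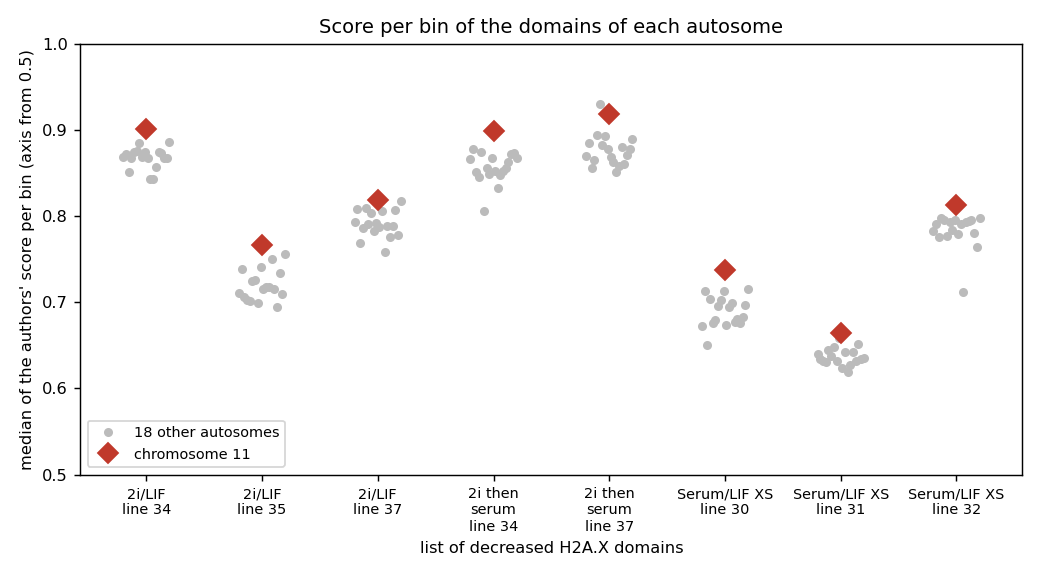
Median of the authors' score per bin over the domains of each autosome (vertical axis, from 0.5, no unit) in the 8 wide lists (horizontal axis). Red diamonds are chromosome 11 and grey points the other 18 autosomes; chromosome 11 is highest in 7 lists, and values are to be compared within a list only.

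Along the chromosome, the domains lay mostly on the side away from the centromere. The distal part, beyond the midpoint of the span, held 65.0%, 50.2% and 57.7% of the covered length in 2i/LIF lines 34, 35 and 37. After the move it held 60.6% (line 34) and 61.6% (line 37), and in the XS lists 64.9%, 53.5% and 66.5% (lines 30, 31 and 32). The lowest shares, 50.2% and 53.5%, were those of the lists that cover the most of the chromosome, 2i/LIF line 35 and XS line 31.

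The distal share did not differ between cultures beyond the spread. The difference of the lists after the move from 2i/LIF was 3.50 percentage points (exact permutation p = 0.8, where 0.2 is the smallest possible), and -0.216 without 2i/LIF line 35. The line number as a block leaves lines 34 and 37, which is the same calculation and gave the same -0.216. The XS lists differed from 2i/LIF by 4.01 percentage points (exact permutation p = 0.6, where 0.1 is the smallest possible), and by 0.295 without 2i/LIF line 35. From the lists after the move they differed by 0.511 (exact permutation p = 1, where 0.2 is the smallest possible), with -1.13 without XS line 30, -1.90 without XS line 32 and -0.0010 without line 34 after the move.

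A distal weight was not particular to chromosome 11. Among the 19 autosomes its distal share was number 5 in 2i/LIF line 34, XS line 30 and XS line 32, and number 14 in 2i/LIF line 35. At least 12 of the 18 others also had a share above 50% in each wide list. The coverage of the distal part is itself a piece of the coverage that chose the chromosome, and it is given as a description only. It was 68.3% in 2i/LIF line 34, 71.6% in 2i/LIF line 37, 79.9% and 76.9% in lines 34 and 37 after the move and 60.6% in XS line 30, the highest distal part of all autosomes in these 5 lists, which are the 5 that chromosome 11 led by coverage. The proximal part of chromosome 11 was number 6, 4, 6, 7 and 2 among proximal parts in the same 5 lists. In 2i/LIF line 35 this order was turned, with the proximal part number 1 at 82.4% and the distal part number 4 at 83.0%. In XS line 31 the distal part was number 7 at 77.9% and the proximal part number 15 at 67.6%. In XS line 32 they were number 11 at 36.1% and number 14 at 18.2%, so the distal part did not lead in any of these 3 lists.

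When the span was cut into 10 equal segments of 11.9 Mb, the last segment, next to the distal telomere, was the most covered in 6 of the 8 wide lists. It ran from 109844801 to 121716400, and its coverage lay between 65.4% and 92.0% with a median of 82.8%. The segment from 14872001 to 26743600 was the least covered in 6 lists, with a range of 10.3% to 75.9% and a median of 34.1%. In between, coverage changed steeply at the segment from 50486801 to 62358400. There 2i/LIF line 34 covered 70.0%, against 32.5% in the segment before, and 2i/LIF line 37 covered 70.2% against 41.9%. After the move the same step was 41.4% to 87.5% in line 34 and 39.5% to 80.2% in line 37, and in XS line 30 it was 27.7% to 60.2%. The step was absent in the other 3 wide lists, where coverage went from 94.1% to 79.9% in 2i/LIF line 35, from 88.3% to 72.2% in XS line 31 and from 27.5% to 17.6% in XS line 32. Pearson's r of these 10 segment values, given as a description, was 0.987 between lines 34 and 37 after the move and 0.980 between 2i/LIF line 34 and its own list after the move, but 0.142 between 2i/LIF lines 34 and 35. Between 2i/LIF line 35 and XS line 31 it was 0.823. Segments of 1 chromosome are neighbours and not independent points.

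**Figure D3:**
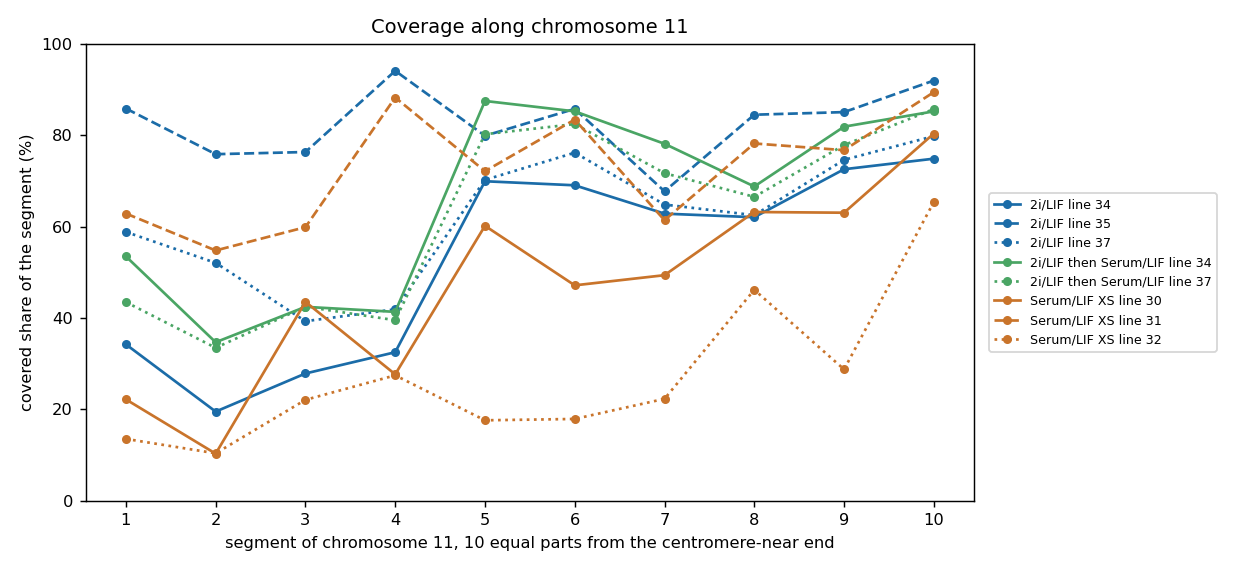
Share of each of 10 equal segments of chromosome 11 covered by decreased domains (vertical axis, percent) against the segment number from the centromere-near end (horizontal axis), 1 line per wide list. Blue, green and orange are 2i/LIF, 2i/LIF then Serum/LIF and Serum/LIF XS; 2i/LIF lines 34 and 37, both lists after the move and XS line 30 step up at segment 5, and every list covers at least 65.4% of segment 10.

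The longest domains showed the same distal weight. In 5 of the 8 wide lists the midpoint of the longest domain of chromosome 11 lay in the last 10% of the span. Line 34 after the move had a domain of 4.96 Mb from 116626901 to 121583800, and line 37 after the move one of 4.79 Mb from 116638601 to 121426500. XS line 30 had one of 2.81 Mb from 116632101 to 119438800, and 2i/LIF line 37 one of 3.90 Mb from 115564801 to 119467400. In XS line 31 it was 5998 kb long, from 108876301 to 114874500, and began before the last 10%. Each of these 5 was covered over at least 50% of its length by all 7 other wide lists. The longest domain of 2i/LIF line 34 lay near the middle of the chromosome, from 68666001 to 70643300 (1.98 Mb), and 6 other wide lists covered at least 50% of it. By contrast, the longest domain of 2i/LIF line 35, from 40530101 to 43486300 (2.96 Mb), was covered to that extent by 1 other wide list, and that of XS line 32, from 90866101 to 93141100 (2.28 Mb), by 3.

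The domains with the highest score per bin, among those of at least 10 bins, were shared widely. They ran from 75582001 to 75858900 in 2i/LIF line 34 (0.988 per bin), 118099801 to 119316600 in line 35 (0.927) and 84320601 to 84623500 in line 37 (0.966). After the move they ran from 114908301 to 116576200 in line 34 (0.981) and 58661201 to 59241000 in line 37 (0.989). In the XS lists they ran from 96608201 to 97019000 in line 30 (0.909), 74955401 to 75111400 in line 31 (0.840) and 117882701 to 118010100 in line 32 (0.970). Each was covered over at least 50% of its length by all 7 other wide lists, except that of XS line 30, where 6 did so. By the looser measure of being touched by all 7, the share among all chromosome 11 domains was 43.5% to 70.6% per list. Sharing rises with coverage, and the highest-scoring domains of other autosomes were not compared, so nothing is read from it. The domain of line 37 after the move was the only one of the 8 on the centromere side of the midpoint.

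Whether pairs of wide lists overlapped more on chromosome 11 than elsewhere turned on how the overlap was measured. The Jaccard index, the length in both lists over the length in either, averaged 0.558 over the 28 pairs of wide lists on chromosome 11 and 0.428 on the other autosomes. It was higher on chromosome 11 in 25 pairs, and it rises with coverage. Relative to the product of the coverages of both lists, which is the overlap that independent placement would give on average, the shared length was lower on chromosome 11 in 19 pairs and higher in 9. This ratio averaged 1.25 on chromosome 11 and 1.35 on the other autosomes, and it cannot go far above 1 where coverage is high. The Jaccard index was highest between both lists after the move, at 0.868, which shared 90.4% and 95.6% of their own lengths. The lowest index, 0.237, joined line 34 after the move with XS line 32, which shared 27.0% and 65.6% of theirs. Pairs of 2i/LIF lists ran from 0.591 to 0.732, and pairs of XS lists from 0.365 to 0.562. If the lists share a control, part of this overlap may come with it, and this was not tested.

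A correlation of the lists over the 91320 bins of the chromosome, which also varies with coverage, was 0.361 on average on chromosome 11 and 0.281 on the other autosomes. It was higher on chromosome 11 in 25 of the 28 pairs. The value for the other autosomes is taken over all of them joined together. These include autosomes hardly covered in a list, such as chromosome 13 in XS line 32 (0.0821%). Ranked against single autosomes, chromosome 11 was number 2 at best in any pair. It was number 9 between 2i/LIF lines 34 and 37 and number 14 between XS lines 31 and 32. The gap to the other autosomes was widest for pairs of an XS list with a list of another culture: pairs of a list after the move with an XS list averaged 0.224 on chromosome 11 and 0.0732 elsewhere, and pairs of a 2i/LIF and an XS list 0.298 and 0.196. The pair of lists after the move had 0.805 on chromosome 11 and 0.815 elsewhere. Neighbouring bins belong to the same domains, so these values are descriptions. This measure was added after the data were seen.

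Few domains belonged to 1 list alone, on chromosome 11 as on all autosomes. Of the 1360 domains of the wide lists on chromosome 11, 4 (0.294%) were touched by no other wide list, compared with 0.957% of those on all autosomes, and 2 of the 4 were in 2i/LIF line 35. In XS line 32, the list with the least coverage, no bin was outside every other wide list, and 55.4% of its length lay in all 7 others, compared with 23.8% on the other autosomes. Those include chromosomes 6 and 8, which the lists after the move hardly cover. On average 83.6% of the domains of a wide list were touched by a domain of another given wide list, compared with 72.2% on the other autosomes. XS line 31 touched 97.0% of the domains of XS line 32, against 96.5% on the other autosomes. All 106 domains of line 34 after the move were touched by 2i/LIF line 35, against 94.0% on the other autosomes. These shares rise with coverage, which chose the chromosome, so nothing is read from the differences. Between the lists after the move, ends agreed far less than positions. Of the 106 domains of line 34 after the move, line 37 after the move touched 101. The same start was found for 15, and none had both ends in common. In 2i/LIF lines 35 and 37, 2 domains had both ends in common. No such values are given for the other autosomes.

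Bins covered by all 8 wide lists made up 15.1% of chromosome 11 (17.9 Mb in 189 stretches), compared with 7.67% of the bins of all autosomes. This was the highest share of the 19 autosomes, followed by chromosome 4 at 14.7%, and since coverage chose the chromosome, nothing is read from it. The share over all autosomes is also lowered by chromosomes 6, 8 and 13, which some wide lists hardly cover. Of the 17.9 Mb on chromosome 11, 84.4% lay in the distal part, and no such share is given for the other autosomes. The 5 longest stretches were all in the distal part. They ran from 118183001 to 119293200 (1.11 Mb), 116996101 to 117482300 (486 kb), 113609601 to 113991800 (382 kb), 94786901 to 95124900 (338 kb) and 95975101 to 96302700 (328 kb). No S domain lay in any of the 5.

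**Figure D4:**
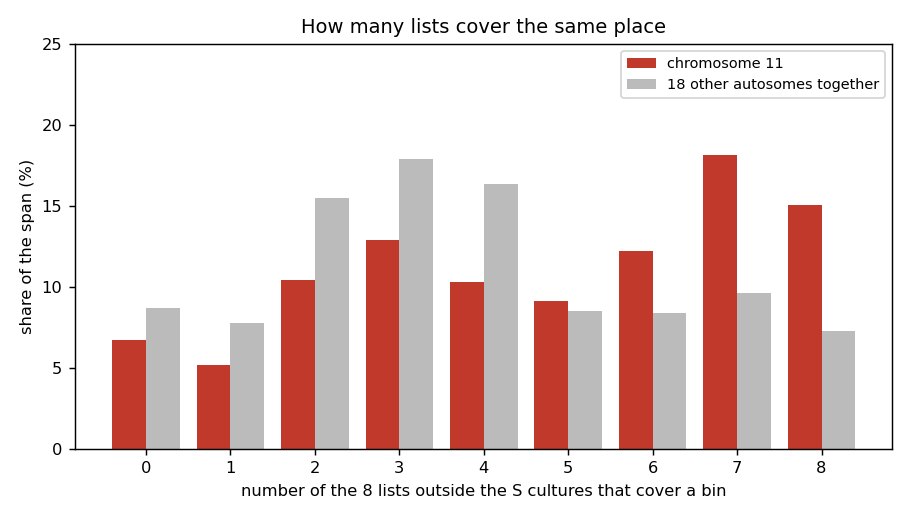
Share of the span (vertical axis, percent) covered by 0 to 8 of the wide lists (horizontal axis), on chromosome 11 (red bars) and on the other 18 autosomes together (grey bars). Chromosome 11 has less of its span in 1 to 4 lists and more in 5 to 8 lists, with 18.2% against 9.60% in 7 lists and 15.1% against 7.29% in all 8. The grey bars include chromosomes 6, 8 and 13, which some wide lists hardly cover.

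Places outside every wide list took 6.71% of chromosome 11 (7.97 Mb in 72 stretches), compared with 8.58% of all autosomes. The longest were on the centromere side, from 30665701 to 31106400 (441 kb), 21451301 to 21829600 (378 kb) and 21911501 to 22211800 (300.3 kb). On the distal side 108292601 to 108587700 (295 kb) and 105461201 to 105717300 (256 kb) followed.

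Regions in which all lists of 1 culture differed from all lists of another took up small parts of chromosome 11. The rule asks every list to agree, and 2i/LIF line 35 alone covered 82.7%, which limits the bins outside all 2i/LIF lists. The shares therefore do not measure how far the cultures differed. Bins that every 2i/LIF list covered but no list after the move did were 1.59% of the chromosome (1.89 Mb), compared with 4% of all autosomes, which include the 26.3% on chromosome 8. The longest such stretch, from 99385001 to 99602100 (217 kb), was also fully covered in XS line 31 and over 28.1% and 40.7% in XS lines 30 and 32. The next ran from 66457301 to 66664000 (207 kb) and from 46546501 to 46714200 (168 kb).

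Bins covered by both lists after the move but by no 2i/LIF list were 3.85% of the chromosome (4.57 Mb in 101 stretches), compared with 4.43% of all autosomes. The longest were from 64802401 to 64972700 (170 kb), 57826601 to 57991700 (165 kb) and 67837901 to 68003000 (165 kb). The last of these was fully covered in XS line 30 and not covered in XS line 32.

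Bins in all XS lists and in no other wide list were rarest, 0.258% of the chromosome (0.307 Mb in 5 stretches), compared with 1.13% of all autosomes. The longest ran from 37347701 to 37476400 (129 kb) and from 91462801 to 91562900 (100.1 kb), followed by 37845601 to 37909300 (63.7 kb).

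From 2i/LIF to the lists after the move, line 34 mainly gained length on chromosome 11 and line 37 exchanged it. In line 34, 94.7% of the 2i/LIF length on the chromosome stayed in the list after the move, 3.29 Mb left the list and 19.1 Mb entered it. In line 37, 80.8% stayed, 14.2 Mb left and 14.5 Mb entered, so that its coverage changed by only 0.313 percentage points, against 13.3 in line 34. Part of this length was the same in both lines. A total of 8.82 Mb entered in both, which was 46.2% of what entered in line 34 and 60.7% in line 37. The length that left both was 1.91 Mb, or 58.1% of what left in line 34 and 13.5% in line 37. Of the length that left in line 37, 61.2% was in neither list of line 34. The distal part held 29.5% of the length that left in line 37 and 49.9% of that in line 34. Of the length that entered, it held 50.2% in line 37 and 44.5% in line 34. The mean share that stayed on the other autosomes was 80.0% in line 34 and 64.4% in line 37, and 89.1% and 72.4% without chromosomes 6 and 8. This share rises with the coverage after the move. Without chromosomes 6 and 8, the mean coverage change of the other autosomes was 12.0 percentage points in line 34 and -0.219 in line 37. By this change chromosome 11 was number 9 of the 19 autosomes in line 34 and number 7 in line 37. The difference between the lines was thus not particular to chromosome 11. With 1 pair of lists per line, these values have no replicate check.

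The 3 S domains of chromosome 11 lay apart from this pattern. Line 35 had a domain of 75.4 kb from 3025101 to 3100500, at the centromere-near end of the span. Line 37 had one of 101.4 kb from 3000401 to 3101800 that contains it, and 2 wide lists reached into that domain without covering 50% of it. These domains had scores per bin of 0.962 and 0.959. The remaining S domain of line 37, from 116597001 to 116620400 (23.4 kb), was fully covered by all 3 2i/LIF lists and not covered by any list after the move or any XS list. A value of undefined meaning that the authors deposited for each domain was above 0 in all 3, as in all S domains of the other autosomes. In the wide lists it was above 0 in 18 of the 106 domains of line 34 after the move (17.0%, against 16.7% on the other autosomes) and in at most 1 domain of any other list.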

How the data were processed

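The submitters' processing notes name Bowtie2 version 2.0.6 and the build mm9. How domains were called, against which control and whether samples were pooled is not given in the sources used here. The deposited lists hold a chromosome, start and end, a state that names a sample as enriched, a signed score of undefined meaning, used only for its sign, and the authors' score. The direction "decreased" is taken from the names of the lists. Coordinates are 1-based.

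Domains were turned into covered bins of 1300 bp over the span of each autosome, which runs from the first covered bin to the last, over all lists. The distal part begins at the midpoint of the span. Lists were grouped by culture, with titles in S and XS kept apart. Number, median length and distal share were compared by exact permutation tests on differences between group means, two-sided as the doubled smaller tail, with Benjamini-Hochberg adjustment over 12 tests; coverage, scores and overlap were described. The regions named were the 5 longest stretches in all or in no wide list, the 3 longest of each class between cultures, the longest and, from 10 bins on, the highest-scoring domain per bin of each wide list, and every S domain. Line numbers pair lists across cultures as the same line. As a check, on chromosome 11 the Jaccard index of 2i/LIF line 34 was 0.725 with its own list after the move and 0.743 with that of line 37. For 2i/LIF line 37 it was 0.675 with either. The overlap thus did not single out lists of the same line, and the pairing rests on the titles alone. The chromosome, measures and rules were chosen with earlier results of these data known. Alternatives were a log10 scale, the higher-scoring 50% of each list, domains joined across gaps under 10 kb, domains of at least 10 kb only, other measures of length, position and overlap, the line as a block, and leaving out each list. Functions were tested on simulated domains. Python 3.11.15, numpy 2.4.6, pandas 2.3.3 and matplotlib 3.10.9 were used. The build of the gene table at hand differs from mm9, and it was not used here.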

Additional observations from a re-analysis of the deposited data

How the results depend on the processing

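No test could reach 0.05, so alternatives bear on directions and sizes only. The minimum length of 10 kb changed nothing in the wide lists, whose shortest domain on chromosome 11 was longer. With the higher-scoring 50% of each list, the coverage difference of 2i/LIF from S was 45.7 percentage points in place of 65.7, that of the lists after the move from S was 52.8 in place of 64.0, and that of the lists after the move from 2i/LIF turned from -1.65 to 7.04; the distal share of the latter pair turned from 3.50 to -3.60. The coverage difference of the lists after the move from 2i/LIF also turned as a ratio to the other autosomes (0.221). It turned without 2i/LIF line 35 (6.82 percentage points) and without line 37 after the move (0.114) as well. The line number as a replicate block leaves lines 34 and 37, the same calculation as without 2i/LIF line 35 (6.82). The block gave -33.5 domains, 86.8 kb of median length and -0.216 percentage points of distal share for that comparison, and 172.5 domains and 72.3 percentage points of coverage for 2i/LIF against S. The cause was not tested.

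Leaving out single lists moved the number of domains to between -66.3 and 4.67 for the lists after the move against 2i/LIF, -26.8 and 42.2 for XS against 2i/LIF and 4 and 80.7 for XS against the lists after the move. Median length moved to between -46.4 and 158 kb, -136 and 9.86 kb, and -220.1 and -15.4 kb in the same order, distal share to between -0.216 and 7.18, 0.295 and 8.07, and -1.90 and 4.57, and coverage to between -8.26 and 6.82, -28.8 and -6.05, and -27.2 and -4.40 percentage points. Against S, coverage moved to between 57.2 and 72.3 for 2i/LIF, 62.3 and 65.8 after the move and 36.9 and 59.6 for XS, and the number to between 166.5 and 173.5, 104.5 and 175.5, and 144 and 213. The mean Jaccard index moved to between 0.537 and 0.644.

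By coverage of the higher-scoring 50%, chromosome 11 was number 1 in 2i/LIF line 35, 9 in XS line 31 and 10 in XS line 32. By domains per Mb it was number 2, 5 and 3 in 2i/LIF lines 34, 35 and 37, 9 and 5 in lines 34 and 37 after the move and 1 in XS lines 31 and 32. By summed score it was number 2 in 2i/LIF line 34 and XS lines 30, 31 and 32, and number 3 in 2i/LIF line 37. The mean overlap of pairs was 0.852 as a share of the smaller list and 0.361 as a correlation over bins. Precision is limited by 2 or 3 lists per culture, by unknown depth and by unidentified controls.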

Other observations

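On the map of domains, stretches in the XS lists and 2i/LIF line 35 stood out beside gaps in the other lists, and they were measured after that was seen. Bins in all 3 XS lists and 2i/LIF line 35 and in none of the other 4 wide lists made up 2.93% of chromosome 11 (3.48 Mb in 22 stretches), compared with 7.67% of all autosomes and 15.9% on chromosome 16. The longest ran from 38122501 to 39295100 (1.17 Mb, mm9), with a neighbour from 39305501 to 39622700 (317 kb), and a further one lay from 91562901 to 92095900 (533 kb). The last of these adjoins the stretch from 91462801 to 91562900 that only the XS lists cover among the wide lists. In XS line 30 the longest gap between domains of chromosome 11 was 6930 kb, and in 2i/LIF line 34 it was 6925 kb, whereas in 2i/LIF line 35 no gap exceeded 441 kb.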
